A study of Mus musculus with 13 samples.

Results

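N-acylethanolamines, among them palmitoylethanolamide (PEA), and the endocannabinoid 2-arachidonoylglycerol (2-AG) are lipid messengers that cells make from membrane phospholipid and break down again by hydrolysis. The transcripts of 10 genes of these pathways were followed in mouse myotubes given PEA. The genes were taken as a list of symbols: Napepld, Gde1 and Abhd4 for synthesis of N-acylethanolamines, Naaa, Faah and Asah1 for their hydrolysis, Dagla and Daglb for synthesis of 2-AG, Mgll for its hydrolysis, and Cnr1 for the cannabinoid receptor CB1. Each symbol matched 1 Ensembl identifier, so the 10 genes are 10 of the 16382 genes in the tables.

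The cells were C2C12, a mouse myoblast line that fuses into multinucleated myotubes, of wild-type genotype. Control libraries (CON) came from myotubes on day 8 of differentiation that had received the vehicle DMSO for 24 h, and PEA libraries from myotubes that had received 10 µM PEA for the same time, with 6 libraries in each group. All are cultures of 1 cell line, grown in duplicate wells, with the experiment done 3 times. Which libraries share a repeat is not given in the labels, so the p-values below treat the 6 libraries of a group as independent. PEA replicate 2 appears in the labels as a run and a further run with 1 set of values, which makes 13 entries.

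Polyadenylated RNA was sequenced, and the libraries held 12354845 to 50397444 estimated counts each (median 18420606). The deepest, CON replicate 1, had 2.25 times the total of the next. Of 8 myotube markers, 8 were tested, and their summed level lay at 5216 to 7956 CPM (estimated counts scaled to a common library total) in CON and 5347 to 6285 in PEA, with Myh8 and Tnnt3 lower in PEA. Of 5 markers of unfused or cycling myoblasts, 5 were tested and Mki67, Top2a and Ccnb1 were higher in PEA. Pax7 and Myf5 did not pass the test described below, which 11.0% of all genes tested passed. The summed level of the 5 was 89.0 to 201 CPM in CON and 207 to 252 in PEA, so the groups did not overlap on this measure. Among single genes tested, 4.34% were without overlap. In bulk RNA, a different number of cells of a kind and a different amount of RNA per cell cannot be told apart. Defining markers of other cell types were low. Of the macrophage markers, Ptprc reached 6 counts and Itgam 10 in any library while Csf1r reached 43 and Cd68, which encodes a lysosomal membrane protein, reached 299, and the list summed to 3.34 to 7.49 CPM in CON and 4.47 to 6.70 in PEA. The neuronal markers summed to 7.48 to 10.4 CPM in CON and 6.94 to 10.3 in PEA, nearly all of it Syn1, and Syt1 reached 12 counts. The endothelial markers Pecam1, Cdh5 and Kdr reached 7, 8 and 7 counts and the adipocyte marker Plin1 reached 8. Adgre1, Rbfox3, Snap25, Adipoq, Cidec and Lep were not analysed here.

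The classical route to an N-acylethanolamine is a phospholipase D, NAPE-PLD (Napepld), that releases it in a single step from an N-acylated phosphatidylethanolamine. A parallel route goes through Abhd4, which removes the acyl chains of the glycerol backbone, and Gde1, a phosphodiesterase that cleaves the resulting glycerophospho-N-acylethanolamine. Hydrolysis to a fatty acid and ethanolamine is carried out by Faah on internal membranes and by Naaa in the lysosome, where PEA is its preferred substrate. Asah1, the lysosomal acid ceramidase, is related to Naaa in sequence and processing. 2-AG is made by the diacylglycerol lipases Dagla and Daglb, is hydrolysed mainly by monoacylglycerol lipase (Mgll), and activates CB1. PEA itself binds CB1 poorly.

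The upstream sequences of the genes on which the results turn are shown first. RefSeq's promoter table held 12 promoters for 8 of the 10 genes, and each was placed on GRCm39 (mm39) by an exact and unique match. Naaa (ENSMUSG00000029413) lies on the minus strand of chromosome 5 at 92405517 to 92426085, and Mgll (ENSMUSG00000033174) on the plus strand of chromosome 6 at 88652108 to 88805342. The stretches printed lie outside annotated coding and untranslated sequence. They stop 45 bases (Naaa) and 102 bases (first Mgll promoter) before the start site, written 5′ to 3′ on the strand of the gene.
Naaa, chr5:92426086-92426290, minus strand: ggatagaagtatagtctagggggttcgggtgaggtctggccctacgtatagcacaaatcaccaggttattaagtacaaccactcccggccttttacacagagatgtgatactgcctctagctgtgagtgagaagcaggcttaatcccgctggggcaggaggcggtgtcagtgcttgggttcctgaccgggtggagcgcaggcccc
Mgll, chr6:88701144-88701291, plus strand: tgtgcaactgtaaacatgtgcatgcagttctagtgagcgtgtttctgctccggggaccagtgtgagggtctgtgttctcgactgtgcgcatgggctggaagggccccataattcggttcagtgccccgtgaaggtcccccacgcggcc

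Motifs were searched as letters, on both strands, in the 250 bases before each start site. The E-box CACGTG, the core of the element bound by the lysosomal regulator TFEB, stood in 2 of the 12 promoters, 1 of Mgll and 1 of Cnr1, and in 6.04% of 32536 promoters of the same length. The direct repeat to which PPAR-RXR binds, a pair of hexamers with a 1-base spacer (DR1), was in 0 of the 12 and in 0.0338% of all promoters. The GC box GGGCGG was in 7 of the 12 and in 33.0% of all. Both E-boxes are shown in 30 bases of sequence with the motif in capitals, and unlike the stretches above both lie in annotated untranslated exon sequence of their gene. The motif begins 44 bases before the start site in Mgll and 49 bases before it in Cnr1.
Mgll, chr6:88701338-88701367, plus strand: gggggccgggcaCACGTGgggccccggcgc
Cnr1, chr4:33924583-33924612, plus strand: aaggctcattaaCACGTGatgggaccacgc

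The values below are normalized counts, that is, counts divided by the depth factor of the library, unless a level per length is named. All 10 genes passed the filter on low counts, and the test was edgeR's quasi-likelihood test, fitted over 13142 genes and adjusted by Benjamini-Hochberg, at a threshold of 0.05. Mgll was lower in PEA and was the single gene of the 10 past the threshold, with 0 genes higher. Over all genes tested 11.0% passed, 6.31% higher and 4.74% lower. By an unadjusted p under 0.05, Mgll, Naaa, Abhd4 and Cnr1 (4 of 10) passed, against 27.4% of all genes. With DESeq2, Naaa and Abhd4 also passed after adjustment, against 14.5% of all genes. In 0 of the 10 were the values of the groups without overlap, and over all genes this was so in 4.34%. The log2 fold change, PEA over CON, was positive in 8 of the 10, called or not, and in 51.3% of all genes. Its median was 0.11 over the 10 genes and 0.01 over all genes tested, and the median of its absolute size was 0.17 against 0.11.

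**Figure D1:**
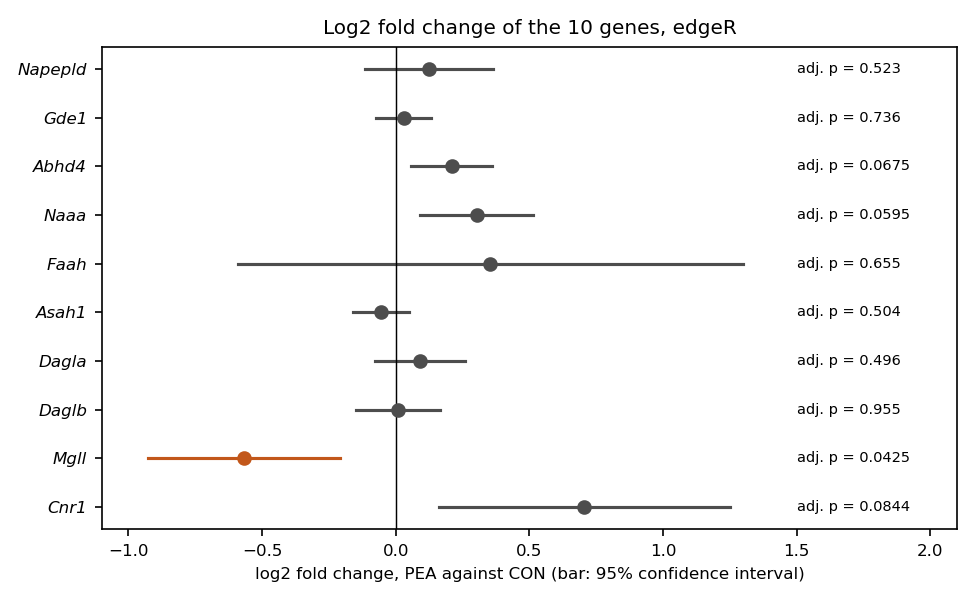
Log2 fold change (PEA over CON, horizontal axis) of each of the 10 genes by edgeR, with the 95% confidence interval as a line, 6 libraries per group. The interval of Mgll runs from -0.93 to -0.21, and Mgll is the gene past the adjusted threshold of 0.05; the interval of Faah is the widest, from -0.59 to 1.30.

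Among the synthesis genes, Abhd4 (ENSMUSG00000040997, chromosome 14, 54491645 to 54508094) was the most abundant. Its normalized counts had a lowest value of 2577, a median of 3089 and a highest of 3751 in CON, and 3301, 3677 and 3772 in PEA. All 6 PEA libraries lay above the CON median but 1 of 6 above the highest CON library, CON replicate 2, so the groups overlapped. The means were 3107 ± 401 in CON and 3588 ± 200 in PEA (SD, n = 6 each), a log2 fold change of 0.21 (SE 0.07, adjusted p = 0.0675 by edgeR). Without CON replicate 2 the adjusted p was 0.00655, in a fit that also called more genes over the whole table (2203 against 1452). With all libraries it was 0.0428 with DESeq2 and 0.0436 with scaling by the library total alone. Abhd4 was not past the threshold without any other single library, the highest adjusted p being 0.139, without PEA replicate 5.

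Napepld (ENSMUSG00000044968, chromosome 5, 21867688 to 21923575) stood at 120, 142 and 174 normalized counts (lowest, median, highest) in CON and at 147, 151 and 198 in PEA. The highest PEA library, replicate 5, stood apart from the other PEA libraries, at 147 to 157. The groups overlapped, with a log2 fold change of 0.12 (SE 0.11, adjusted p = 0.523) and a 95% interval of -0.12 to 0.36. Without PEA replicate 5 the log2 fold change was 0.051, and without CON replicate 3 it was 0.073. Gde1 (ENSMUSG00000033917, chromosome 7, 118274522 to 118305015) stood at 1319, 1425 and 1584 in CON and 1365, 1465 and 1488 under PEA. The fitted log2 fold change was 0.03 (SE 0.05, adjusted p = 0.736), with a 95% interval of 0.951-fold to 1.10-fold, and lay between 0.0075 without CON replicate 1 and 0.063 without CON replicate 2. Exons of Napepld share 367 bases with Armc10 on the opposite strand, and whether strand was used in counting is not given in the sources used here.

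**Figure D2:**
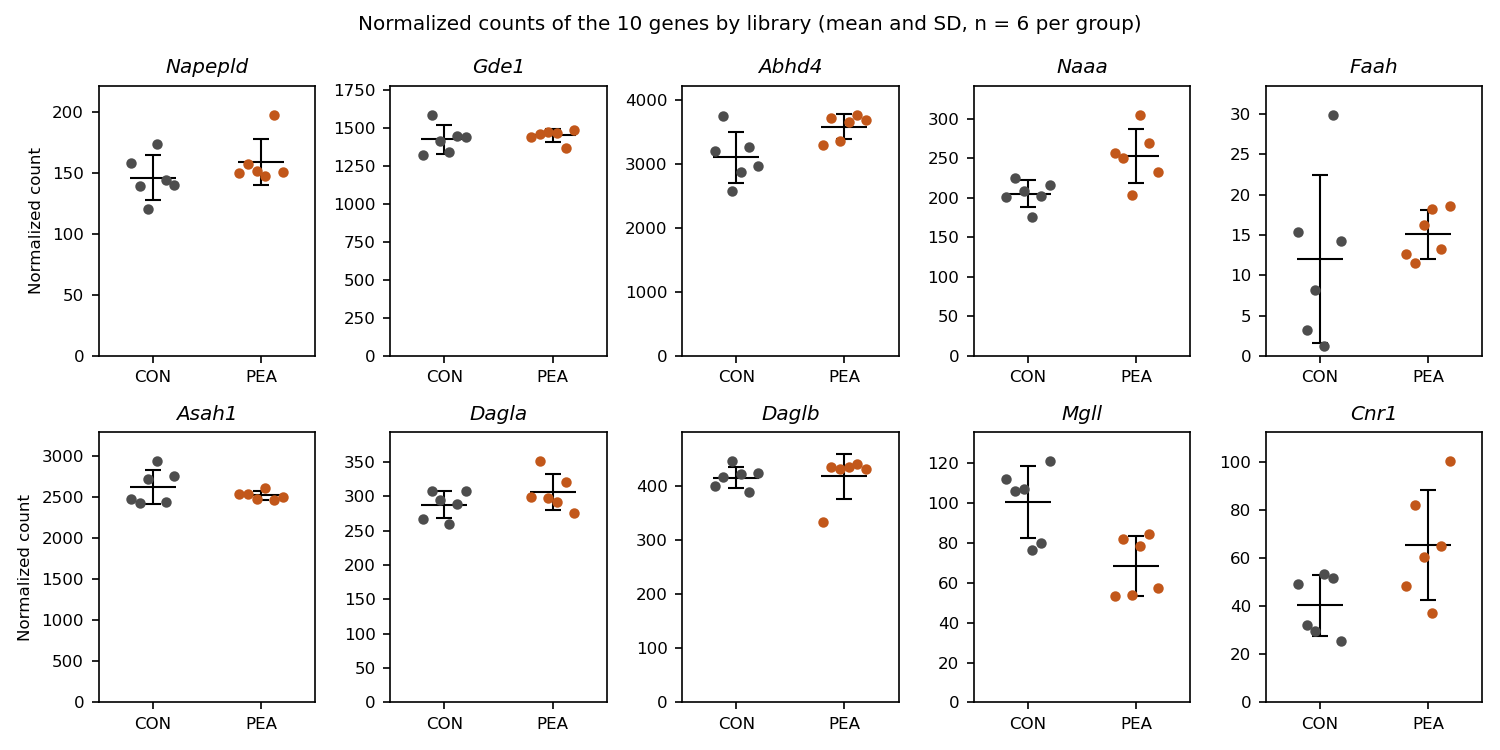
Normalized counts (linear vertical axes from 0, 1 panel per gene) of the 10 genes in the 6 CON and 6 PEA libraries; each point is 1 library, with the mean and SD of the group as bars. The PEA libraries of Mgll sit between 53.6 and 84.6 and those of CON between 76.6 and 121, while Faah stays at or under 29.9 in every library.

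Of the hydrolases of N-acylethanolamines, Naaa had 175, 206 and 225 normalized counts (lowest, median, highest) in CON and 204, 253 and 305 in PEA. The PEA libraries lay above the highest CON library in 5 of 6, and PEA replicate 3, at 204, lay below the CON median. The log2 fold change was 0.30 (SE 0.10, 95% interval 0.09 to 0.51), at an adjusted p of 0.0595 by edgeR, with estimated counts of 129 to 526 per library. Single libraries decided on which side of the threshold Naaa fell: the adjusted p was 0.0284 without PEA replicate 3, 0.0399 without CON replicate 2, and 0.137 without PEA replicate 4. It was 0.0441 with DESeq2 and 0.0421 with scaling by the library total.

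Faah (ENSMUSG00000034171, chromosome 4, 115824342 to 115875423) was close to the lower limit of what these libraries measure. It had 1 to 40 estimated counts per library, and its normalized counts were 1.22, 11.2 and 29.9 (lowest, median, highest) in CON and 11.6, 14.7 and 18.5 in PEA. Counting error alone gives a coefficient of variation of 43.1% at the CON counts, and the CON libraries varied by 86.7%. The log2 fold change was 0.35 with an SE of 0.45 (adjusted p = 0.655), and its 95% interval, 0.66-fold to 2.46-fold, holds differences in both directions. The size rested on single libraries and on the scale: it was 0.14 without CON replicate 4, 0.17 without CON replicate 2 and 0.70 without CON replicate 5, and 0.74 with limma-voom and 0.76 to 0.89 with the deposited normalized counts in limma, none past the threshold. Faah had too few counts to be tested in thinned libraries and with a minimum of 10 counts in every library.

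Asah1 (ENSMUSG00000031591, chromosome 8, 41792846 to 41827851), the acid ceramidase, was the most abundant of the 3 genes listed under hydrolysis of N-acylethanolamines. It stood at 2432, 2592 and 2932 normalized counts in CON and at 2462, 2515 and 2606 in PEA, where the libraries were closer together (coefficient of variation 2.06% against 7.90%). All 6 PEA libraries lay inside the CON range. The log2 fold change was -0.06 (SE 0.05, adjusted p = 0.504), with a 95% interval of -0.16 to 0.05, and it was -0.022 without CON replicate 4.

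Mgll, which ends the action of 2-AG by cleaving it to arachidonic acid and glycerol, gave the lowest log2 fold change of the 10. CON replicates 1 to 6 had 112, 106, 107, 76.6, 80.2 and 121 normalized counts, and PEA replicates 1 to 6 had 53.6, 82.2, 53.9, 78.7, 84.6 and 57.3. All 6 PEA libraries were below the CON median of 107, and 3 of 6 (replicates 1, 3 and 6) were below every CON library. The other PEA libraries overlapped with CON replicates 4 and 5. Mgll fell by 32.5% in the fit, to 0.675-fold of CON (95% interval 0.526 to 0.866), with a log2 fold change of -0.57 (SE 0.17, adjusted p = 0.0425, edgeR's quasi-likelihood test). The groups' means were 101 ± 18.0 in CON and 68.4 ± 14.9 in PEA (SD, n = 6 each), at 50 to 293 estimated counts per library. Exons of Mgll share 496 bases with Gm26588, and those of Cnr1 203 bases with Gm33105, on the opposite strand, and if strand was not used in counting, reads there cannot be told apart.

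The call on Mgll was near the threshold. It held in 8 of 11 alternative analyses of all libraries and was lost with libraries thinned to the smallest total (adjusted p = 0.122), with scaling by the library total (0.0513) and in the fit by replicate number that is given with the processing alternatives. It also held in 5 of 12 fits that left out 1 library. The adjusted p was 0.0822 without CON replicate 1, 0.0675 without CON replicate 3, 0.0979 without CON replicate 6, 0.0750 without PEA replicate 1, 0.0752 without PEA replicate 3, 0.0527 without PEA replicate 4 and 0.0959 without PEA replicate 6. The log2 fold change stayed between -0.64 and -0.51 in these 12 fits. The summed markers of unfused or cycling myoblasts, given above, did not overlap between the groups. Their part in the values of Mgll, Naaa, Abhd4 and Cnr1 was not tested.

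The diacylglycerol lipases, which supply 2-AG, were not past the threshold. Dagla (ENSMUSG00000035735, chromosome 19, 10222629 to 10282320) had 260, 292 and 308 normalized counts (lowest, median, highest) in CON and 276, 298 and 351 in PEA, a log2 fold change of 0.09 (SE 0.08, adjusted p = 0.496) that was 0.048 without PEA replicate 2. Daglb (ENSMUSG00000039206, chromosome 5, 143450236 to 143496130) had 388, 418 and 445 in CON and 332, 433 and 441 in PEA, a log2 fold change of 0.01 (SE 0.07, adjusted p = 0.955). The lowest PEA value, 332, was that of replicate 1 and the other PEA libraries lay at 430 to 441. The direction of Daglb was not stable: it was -0.02 on the log2 scale in thinned libraries. Daglb counts were not whole numbers in 12 of 12 libraries, and its exons share 2682 bases with Rac1 on the opposite strand, so reads of the pair may have been divided between them.

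**Figure D3:**
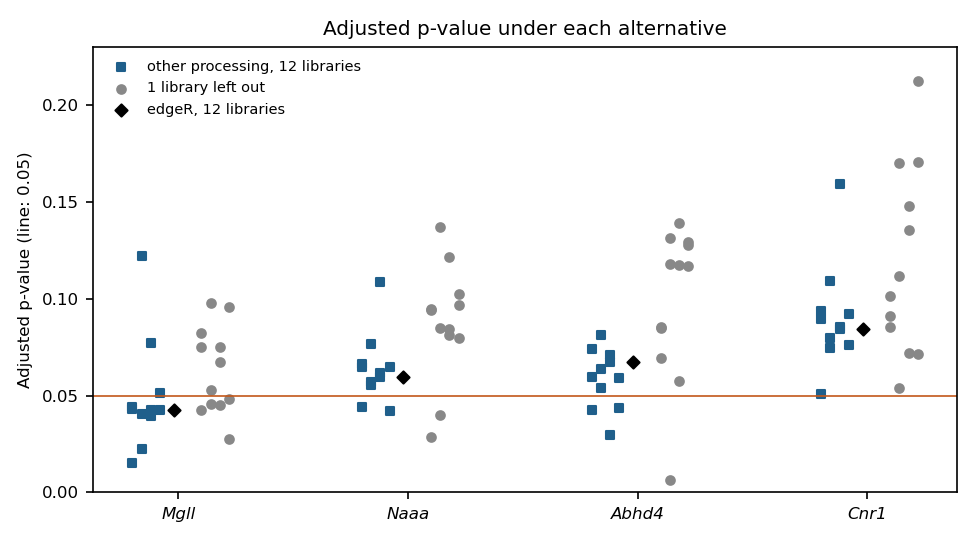
Adjusted p-values (linear vertical axis) of Mgll, Naaa, Abhd4 and Cnr1 under the edgeR analysis (diamonds), the alternatives with all 12 libraries (squares), and the 12 analyses that leave out 1 library (circles); the line marks the threshold of 0.05. Mgll lies between 0.0152 and 0.122, on both sides of the line, and Cnr1 between 0.0510 and 0.213, above it.

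Cnr1 (ENSMUSG00000044288, chromosome 4, 33922982 to 33948836), which encodes CB1, had the highest log2 fold change of the 10 and did not pass the threshold. CON replicates 1 to 6 had 49.4, 32.2, 29.8, 53.5, 51.9 and 25.4 normalized counts, and PEA replicates 1 to 6 had 48.3, 82.2, 60.4, 37.3, 65.2 and 100.3. PEA libraries exceeded the highest CON library in 4 of 6, and PEA replicates 1 and 4 lay within the CON range. The log2 fold change was 0.71 (SE 0.26, 95% interval 0.16 to 1.25, adjusted p = 0.0844). Estimated counts were 25 to 129, where counting error alone gives a coefficient of variation of 16.4% in CON, and the libraries varied by 31.1% in CON and 34.8% in PEA. Across the analyses of all libraries the adjusted p lay between 0.0510 (DESeq2) and 0.159, and it was 0.213 without PEA replicate 6.

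Ratios of genes within a library do not depend on its depth, and 4 such ratios of counts were compared with a two-sided exact permutation test over the libraries, adjusted over the 4. The ratio of Mgll to Dagla plus Daglb, a hydrolase of 2-AG over the diacylglycerol lipases, was 0.143 ± 0.0231 in CON and 0.0947 ± 0.0159 in PEA (SD, n = 6 each). It leaves out the hydrolases Abhd12 and Abhd6, which had 1583 and 428 normalized counts in CON against 101 for Mgll. The ratio thus describes Mgll and not the hydrolysis of 2-AG as a whole. The CON libraries ranged from 0.113 to 0.169 and the PEA libraries from 0.0748 to 0.112, so the groups separated, though CON replicate 4 and PEA replicate 5 nearly met. The log2 difference was -0.60 (exact permutation p = 0.00216, the smallest that 6 against 6 libraries allow, adjusted 0.00866). In 14 of 14 alternatives, including the omission of each library in turn, the unadjusted exact p of this ratio was under 0.05, between 0.00216 and 0.0130.

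The ratio of Naaa to Asah1, the related lysosomal amidases, was 0.0790 ± 0.0108 in CON and 0.10 ± 0.0122 in PEA. The CON libraries ranged from 0.0599 to 0.0929 and the PEA libraries from 0.0824 to 0.117, so the groups overlapped in part. The log2 difference was 0.35 (exact permutation p = 0.00866, 0.0173 when adjusted over the 4 ratios only). In 14 of 14 alternatives the unadjusted exact p was under 0.05, between 0.00433 and 0.0195. Naaa alone had an unadjusted p of 0.00754 by edgeR's test, which was 0.0595 when adjusted over all genes tested. Asah1 had a log2 fold change of -0.06, so the ratio largely follows Naaa. Naaa to Napepld, a single hydrolase gene over a single synthesis gene of N-acylethanolamines, stood at 1.43 ± 0.262 in CON and 1.60 ± 0.267 in PEA. The log2 difference was 0.17 (exact permutation p = 0.294, adjusted 0.359), and Abhd4, Gde1 and Asah1 are not part of this ratio. Daglb to Dagla stood at 1.45 ± 0.109 and 1.37 ± 0.169, a log2 difference of -0.09 (exact permutation p = 0.359, adjusted 0.359).

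**Figure D4:**
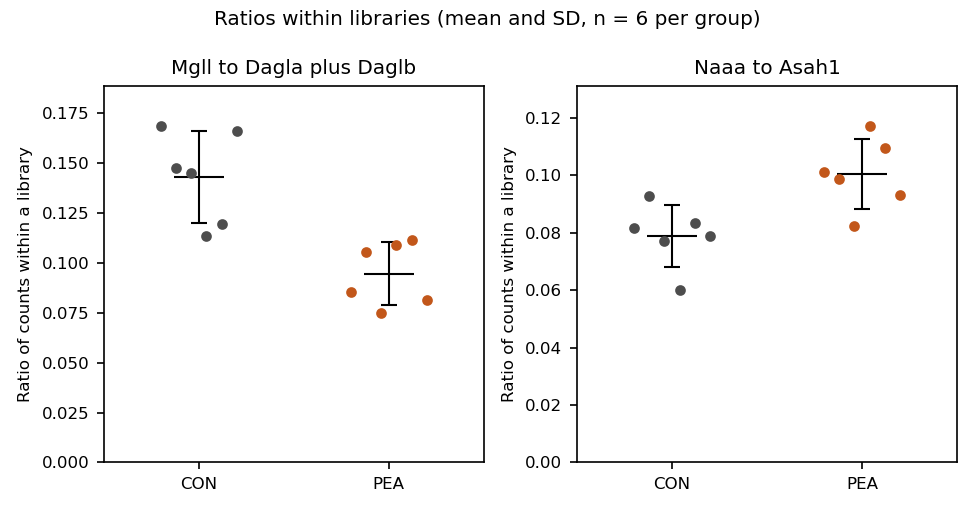
Ratios of counts within a library (linear vertical axes from 0) of Mgll to Dagla plus Daglb and of Naaa to Asah1, in the 6 CON and 6 PEA libraries; each point is 1 library, with the mean and SD of the group. The PEA values of Mgll to Dagla plus Daglb end at 0.112, just under the lowest CON value of 0.113, while those of Naaa to Asah1 begin at 0.0824, under the highest CON value of 0.0929.

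Levels of different genes were set side by side per length, as CPM divided by kilobases of exon. The order in CON was Abhd4 (27.7 ± 3.56), Asah1 (20.8 ± 1.65), Gde1 (7.27 ± 0.470), Naaa (1.99 ± 0.165), Dagla (1.45 ± 0.0990), Daglb (1.28 ± 0.0631), Napepld (1.04 ± 0.130), Mgll (0.840 ± 0.151), Cnr1 (0.222 ± 0.0690) and Faah (0.0561 ± 0.0485), with SD over 6 libraries. In PEA the order was the same, with levels of 32.7 ± 2.07 for Abhd4, 2.50 ± 0.339 for Naaa, 0.584 ± 0.130 for Mgll, 0.369 ± 0.131 for Cnr1 and 0.0718 ± 0.0143 for Faah. The levels thus spanned from the percentile 88.7 of tested genes (Abhd4) to 0.366 (Faah), with Naaa at 30.6.

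The ranges over all 12 libraries did not overlap between the neighbours Asah1 and Gde1, Gde1 and Naaa, and Cnr1 and Faah. The other neighbours overlapped in range. Within a library Daglb lay above Napepld in 10 of 12, Napepld above Mgll in 10 of 12 and Mgll above Cnr1 in 11 of 12, and the remaining neighbours kept their order in 12 of 12. With the length of the coding transcript in place of all exons, Dagla and Daglb exchanged places. In this scale the genes of the Abhd4 and Gde1 route lay above Napepld, the gene of the single-step route, in both groups.

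**Figure D5:**
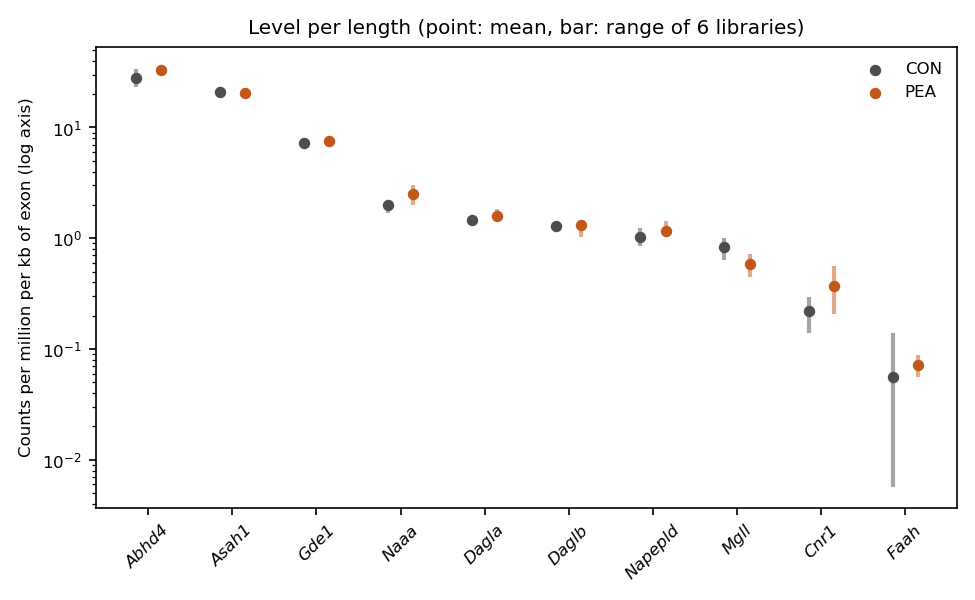
Levels of the 10 genes in CPM divided by kilobases of exon (log axis) in CON and PEA, in descending order; points are means and bars the range of 6 libraries. Abhd4 reaches 34.4 and Faah 0.00569, and the gaps without overlap lie between Asah1 and Gde1, Gde1 and Naaa, and Cnr1 and Faah.

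Beyond the 10 genes, 54 genes of the wider pathway were listed by role, of which 45 were in the tables and 38 were tested. Of the 38, Ptgs2 and Etnk1 were higher, Fabp3 and Smpd1 were lower, and 34 were not past the threshold. The 4 of 38 that passed stand beside 11.0% of all genes tested, a like share, and the median log2 fold change was 0.04. None of the 4 tested genes of other N-acylethanolamine synthesis passed. Gdpd1, a lysophospholipase D that can release N-acylethanolamines, came nearest, with 520 ± 51.5 normalized counts in the CON group against 433 ± 48.0 under PEA (-0.26 on the log2 scale, SE 0.08, adjusted p = 0.0536). Gdpd3, of the same family, had 2 to 6 counts per CON library and 3 to 8 per PEA library and was not tested.

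Of 7 tested genes of other synthesis and breakdown of 2-AG, 1 passed, Ptgs2, the cyclooxygenase that oxygenates both arachidonic acid and 2-AG (log2 fold change 0.45, SE 0.08, adjusted p = 0.00425). It passed in 11 of 11 alternatives with all libraries and with each of 12 libraries left out. The other hydrolases of 2-AG did not pass: Abhd12 stood at 1583 ± 99.8 normalized counts in CON against 1431 ± 47.2 under PEA (log2 fold change -0.14, adjusted p = 0.0622), and Abhd6 at 428 ± 25.0 and 421 ± 73.3 (log2 fold change -0.02, adjusted p = 0.912). Of the receptors, 3 genes were tested and 0 passed: Cnrip1, a CB1-interacting protein, Ppard and Pparg. Trpv1 and Ppara were under the filter, with at most 12 and 13 counts in any library, and Cnr2, Gpr55, Gpr18 and Gpr119 were not analysed here.

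Among 4 carriers of fatty acids and their amides, Fabp3, the heart and muscle fatty acid binding protein, was lower, at 247 ± 43.0 normalized counts in CON against 191 ± 11.9 under PEA (log2 fold change -0.37, SE 0.11, adjusted p = 0.0426). Among 5 tested genes of ceramide hydrolysis and its cofactors, Smpd1, the acid sphingomyelinase, was lower, at 1444 ± 85.6 and 1281 ± 29.6 (log2 fold change -0.17, SE 0.05, adjusted p = 0.0273), and the groups did not overlap, with ranges of 1330 to 1553 in CON and 1231 to 1313 in PEA, as in 4.34% of all genes tested. Among 4 tested genes that use ethanolamine, the other product of PEA hydrolysis, Etnk1, an ethanolamine kinase, was higher, at 1225 ± 91.5 and 1399 ± 58.5 (log2 fold change 0.19, SE 0.05, adjusted p = 0.0278). These 3 calls were near the threshold. With 1 library left out, Fabp3 passed in 2 of 12 fits, without CON replicates 3 and 4, and its highest adjusted p was 0.0891. With all libraries, Fabp3 was lost with scaling by the library total (adjusted p = 0.0562) and with the deposited normalized counts in limma (0.0503), and Smpd1 with scaling by the library total (0.0534). Smpd1 passed in 5 of 12 fits with 1 library left out, its adjusted p reaching 0.0717 without CON replicate 6, and was lost without CON replicates 1, 3, 5 and 6 and without PEA replicates 2, 5 and 6. Etnk1 passed in 7 of 12, reaching 0.0699, and was lost without CON replicate 6 and without PEA replicates 1, 2, 4 and 6. Of 11 lysosomal hydrolases and membrane proteins, 11 were tested and 0 passed by edgeR, beside 11.0% of all genes, with a median log2 fold change of 0.02. The lysosomal enzymes among the 10 genes, Naaa and Asah1, had 0.30 and -0.06, and neither passed.

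The levels of the 10 genes over the 12 libraries were compared with each other as a description, in log2 CPM. Of 45 pairs, 38 had a Pearson r between -0.5 and 0.5. Naaa and Abhd4 had an r of 0.64, which was 0.35 after the group means were removed, and Abhd4 and Asah1 had -0.68 and -0.65. Mgll and Cnr1 had -0.64 and -0.36. Mgll went with Naaa within the groups, at an r of 0.69, but not over all libraries, at -0.17. Libraries of a group share the treatment and some are duplicate wells, and depth differs between libraries, so these values describe the 12 libraries. Among all tested genes, those closest to Naaa over the 12 libraries were Sdccag8 (r = 0.93), Ncoa6 (0.91) and Dctd (0.90), and those closest to Mgll were 2310022A10Rik (0.90), Cndp2 (0.90) and Ifnar1 (0.86). Of these 6, 2310022A10Rik passed the threshold, with a log2 fold change of -0.17 (adjusted p = 0.0381, edgeR).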

How the data were processed

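RNA-seq was performed on polyadenylated RNA of C2C12 myotubes (NEBNext Ultra II libraries, paired-end reads). The authors removed reads under a Phred score of 20, aligned the rest to mm39 with STAR (version 4.4.1d in the submitters' processing notes) and quantified Ensembl genes in Partek Flow; the first table they deposited holds an estimated count per gene and library. The second deposited table is a signal on a linear scale, the same counts times 1 factor per library (DESeq2 median-ratio normalization), and the ratio of both tables was checked to be constant within each library. Of the estimated counts, 30.8% were not whole (tolerance 0.01), and all were rounded. The tables end at identifier ENSMUSG00000089774, and 2240 protein-coding genes with higher identifiers were not analysed here. GENCODE for GRCm39 gave symbols, positions and lengths for 16343 of 16382 genes, and RefSeq the promoters.

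The primary test was edgeR 4.0.16 in R 4.3.3 (quasi-likelihood, TMM, default filter), group as the single term, adjusted over all 13142 genes tested. TMM factors were 0.988 to 1.02. Ratios used two-sided exact permutation tests, with 0.5 added to both counts. DESeq2 1.42.0 and limma 3.58.1 served as alternatives, and tables and figures were made in Python 3.11.15 (pandas 2.3.3, numpy 2.4.6, scipy 1.17.1, matplotlib 3.10.9). Steps were tested on simulated data. Precision is limited by depth, 12354845 to 50397444 counts per library, and intervals of the fits cover the spread between libraries and counting error, nothing else.

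The 10 genes, the pathway lists and the markers were chosen with earlier results of these data known. Genes named are the 10, the called genes of each list (up to 3), listed genes at low counts, and for Naaa and called genes the 3 genes closest by Pearson r; Gdpd1, Abhd12, Abhd6, Cnrip1, Ppard and Pparg were named outside this rule after their values were seen. Promoters of Dagla and Asah1, and protein sequences, were not used here.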

Additional observations from a re-analysis of the deposited data

Results flagged for a closer look

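In groups of 6 libraries, the gap between an extreme library and its nearest neighbour, as a share of the group's range, was compared with Dixon's 95% critical value, over 28 groups (the 10 genes and the 4 ratios in CON and in PEA). Chance flags about 1 in 20 groups, and 3 were flagged, all in PEA. Napepld stood at 198 normalized counts in PEA replicate 5, with the others at 147 to 157 (gap 0.800 of the range). Gde1 stood at 1365 in PEA replicate 5, with the others at 1442 to 1488 (0.628). Daglb stood at 332 in PEA replicate 1, with the others at 430 to 441 (0.907). None of these 3 genes passed the threshold with or without the library in question.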

How the results depend on the processing

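The replicate numbers did not pair the libraries: same-numbered CON and PEA libraries had deviations correlated at -0.083 to 0.065, with 0 of 6 pairs over 0.1. With the replicate block 1 of the 10 genes was called higher (Abhd4, adjusted p = 0.0296) and 0 lower (Mgll, adjusted p = 0.0769), and the listed gene Smpd1 was lost (0.0503). Against 0 higher and 1 lower in the primary analysis, DESeq2 called 2 higher and scaling by the library total 2 higher and 0 lower, and thinned libraries gave 0 lower. Of the wider pathway list, 2 genes were lower in the primary analysis, 4 with DESeq2, 0 with the library total, and 1 with the deposited normalized counts in limma, at a pseudocount of 1 and at 0.25. With 1 library left out, the genes called over the whole table were lowest at 778 without PEA replicate 6 and highest at 2203 without CON replicate 2, around 1452, the 10 genes called higher from 0 to 2 and lower from 0 to 1, and the listed genes called higher from 1 to 3 and lower from 0 to 3. Daglb reversed to a log2 fold change of -0.019 in thinned libraries and ranged from -0.0082 to 0.067 with 1 library left out; the cause was not tested. Of the comparisons of a gene's fold change with an alternative, 203 kept the direction and side of the threshold, 8 newly passed, 10 no longer passed and 7, all of Daglb, reversed. The ratios, by unadjusted exact p, kept both in 56 of 56. The planned permutation test for any of the 10 genes under the filter was not run, since all 10 passed it in the primary analysis; Faah did not pass in thinned libraries or with at least 10 counts in every library and has no value there. The spread between CON libraries exceeded counting error in each of the 10 genes but Daglb, from Abhd4 (coefficient of variation 12.9% against 1.81%) to Faah (86.7% against 43.1%), Cnr1 (31.1% against 16.4%) and Mgll (17.9% against 10.2%).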

Other observations

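Etnk2, an ethanolamine kinase and paralog of the called gene Etnk1, was singled out after its values were seen. It had 0 estimated counts in the 6 CON libraries, out of 134574692 in all, and 22 counts in PEA, found in 5 of 6 libraries with at most 7 in any library. This is 0.197 CPM in PEA, 8.82 times the 0.0223 CPM that 3 counts over the whole CON group would give. The counting error of the 22 counts is not included in this value. The gene was under the filter and has no test. Plaat1, an N-acyltransferase, had 5 counts in CON and 22 in PEA, of which 14 came from 1 library. Of the other listed genes under the filter, Gdpd3 had 18 counts in CON and 36 in PEA and Ppara had 29 and 37. Acer1, an alkaline ceramidase, had 22 counts in CON, of which 11 came from 1 library, and 9 in PEA. Trpv1 had 13 and 2, of which 12 of the 13 came from 1 library. Acer2 had 11 and 14, of which 6 of the 11 came from 1 library. Totals over the groups were 134574692 counts in CON and 111941801 in PEA.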
